A study of Homo sapiens with 12 samples.

Results

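The drug efflux transporters described here are 7 genes of the ATP-binding cassette (ABC) family, ABCB1, ABCG2, ABCC2, ABCC3, ABCC4, ABCC5 and ABCC10, out of 23284 genes listed in each library. They were chosen by name, with earlier results of these data known, among them the lower level of ABCC3 at 4 Gy in degron (++) cells. That contrast is therefore given as a description, with no test for any transporter. ABCC3 is also described with no p in every comparison that uses degron (++) libraries. Of the 7 genes, 5 reached 1 FPKM in 2 or more libraries and were tested, and each of these did so in all 12 libraries. ABCB1 and ABCC2 did not reach it in any library.

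RNA of PANC-1 cells, an established human pancreatic cancer line, was sequenced in 12 libraries. All cells carried a retroviral reporter, the green fluorescent protein ZsGreen fused to the ornithine decarboxylase degron, which accumulates where proteasome activity is low. Degron (++) cells were the brighter part of a line enriched for ZsGreen by repeated sorting, and degron (−) cells were the infected line before that enrichment, so each population comes from a single infected line. Each population had 3 groups of 2 libraries: unirradiated (0 Gy) at 48 h, irradiated (4 Gy) at 30 h, and irradiated (4 Gy) at 48 h. The labels give no starting point for the hours and do not call the replicates separate cultures, so p-values measure the spread between these libraries, which may be technical. The 6 libraries taken as degron (−) are called ZsGreen– in their titles and d+ in their descriptions.

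ABC transporters use ATP to move substrates across membranes, and those of the plasma membrane export drugs and their conjugates. ABCB1 (P-glycoprotein) and ABCG2 (breast cancer resistance protein) export many unmodified drugs. The ABCC members are multidrug resistance proteins: ABCC2 and ABCC3 export glucuronide and glutathione conjugates, at the apical and the basolateral membrane. ABCC4 and ABCC5 export cyclic nucleotides and nucleotide analogs, and ABCC10 exports lipophilic drugs such as taxanes. In pancreatic cancer they are studied because the tumor responds poorly to chemotherapy.

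The values are FPKM, sequenced fragments corrected for exon length and for the mapped reads of the library, so levels can be compared between genes. Read depth is unknown. Steps between low values gave relative depths from 0.858 to 1.16. FPKM summed to between 829654 and 916877 in degron (++) libraries and between 707273 and 763064 in degron (−) libraries, and each of the 12 libraries correlated best with one of its own population. All 8 epithelial and duct markers were present in both populations, with a summed level of 7243 to 8435 FPKM in degron (++) and 4284 to 5195 FPKM in degron (−) cells. Of the immune markers, CD3E and MS4A1 were listed at 0 and PTPRC was under 1 FPKM in every library, while the summed immune level was 4.50 to 6.37 FPKM in degron (++) and 124.5 to 165.2 FPKM in degron (−) cells, where CD68 made up most of it. All 3 endothelial markers and 4 of 5 fibroblast markers were under 1 FPKM, DCN was listed at 0, and the summed fibroblast level was 14.1 to 24.9 FPKM in degron (++) and 1.03 to 2.04 FPKM in degron (−) cells. PANC-1 is known to have lost CDKN2A, yet the summed level of the 9p21 genes CDKN2A, CDKN2B and MTAP ranged from 128.7 to 143.8 FPKM in degron (++) cells and from 15.4 to 28.3 FPKM in degron (−) cells. A difference between the labelled populations cannot be told apart here from a difference in which cells the libraries held.

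The windows of 250 bases before the gene start are shown for ABCG2, the transporter that was higher in degron (++) cells, and for ABCC4 and ABCC10, which had the largest differences in the other direction. They come from RefSeq on GRCh38.p14, which listed 6 of the 7 genes, whereas the FPKM were made on hg19. Capitals mark matches, on either strand, to GCGTG (bound by AHR with ARNT), ACGTG (bound by HIF1A with ARNT) and TGACNNNGC (bound by NFE2L2).
ABCG2, chr4:88158860-88159109, minus strand: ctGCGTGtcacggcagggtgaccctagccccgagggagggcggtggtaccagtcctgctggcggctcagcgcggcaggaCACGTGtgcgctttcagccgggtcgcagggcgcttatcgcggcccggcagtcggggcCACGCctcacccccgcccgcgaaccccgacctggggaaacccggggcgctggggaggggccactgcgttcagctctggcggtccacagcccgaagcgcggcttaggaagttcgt
ABCC4, chr13:95301452-95301701, minus strand: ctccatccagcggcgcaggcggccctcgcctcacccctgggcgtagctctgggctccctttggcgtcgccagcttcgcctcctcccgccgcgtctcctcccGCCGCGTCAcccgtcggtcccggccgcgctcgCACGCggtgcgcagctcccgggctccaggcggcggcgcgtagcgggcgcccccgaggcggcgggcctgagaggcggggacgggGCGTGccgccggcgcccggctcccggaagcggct
ABCC10, chr6:43427613-43427862, plus strand: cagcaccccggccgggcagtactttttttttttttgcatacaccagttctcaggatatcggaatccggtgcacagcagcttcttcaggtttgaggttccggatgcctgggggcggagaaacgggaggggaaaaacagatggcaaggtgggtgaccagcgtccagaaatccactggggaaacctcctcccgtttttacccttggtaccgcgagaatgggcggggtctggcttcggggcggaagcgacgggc
The ABCG2 window shown held 2 matches to GCGTG and 2 to ACGTG, which are both strands of a single CACGTG. The ABCC4 window held 2 matches to GCGTG and 1 to TGACNNNGC, and the ABCC10 window shown held none of these 3 motifs. RefSeq lists 5 windows for ABCG2 and 2 for ABCC10, and the first listed of those that overlap the most other windows of the gene is shown. Of the other 4 ABCG2 windows, 1 held the same numbers of matches, 1 held 2 to GCGTG alone and 2 held none. The other ABCC10 window held 2 matches to GCGTG, 2 to ACGTG and 1 to TGACNNNGC. Of 34943 windows of this length, 32.2% held GCGTG, 18.5% ACGTG and 10.9% TGACNNNGC. The share of G and C was 72.4% for ABCG2, 80.4% for ABCC4 and 58% for ABCC10. A match describes these letters and is not a measured binding site.

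ABCB1 was listed at 0 in 11 libraries and at 0.019 FPKM in the other, the second degron (−) library at 0 Gy and 48 h. RNA of P-glycoprotein was thus at or near 0 in both populations. ABCC2 was also low, with FPKM between 0.154 and 0.347 (median 0.228) in degron (++) and between 0.176 and 0.522 (median 0.279) in degron (−) libraries, and the populations overlapped.

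ABCG2 was the transporter that stood higher in degron (++) cells. Its FPKM in degron (++) libraries were 10.9 and 10.6 without irradiation. At 4 Gy they were 9.77 and 11.2 at 30 h, and 10.54 and 9.87 at 48 h. In degron (−) libraries they were 2.46 and 2.59, 2.34 and 2.35, and 3.11 and 3.57 in the same order. Every degron (++) library lay above every degron (−) library, and the mean over 6 libraries was 3.83 times as high. In such bulk samples, fewer cells with a transcript and less of it per cell cannot be told apart. The difference of mean log2(FPKM + 1) was 1.74 without irradiation (SE 0.0779, adjusted p = 6.84e-08, limma). At 4 Gy it was 1.78 at 30 h (adjusted p = 5.05e-08, limma) and 1.37 at 48 h (adjusted p = 3.56e-07, limma).

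ABCC4 and ABCC10 were lower in degron (++) cells. ABCC4 had FPKM of 4.19 and 4.05, 4.74 and 4.54, and 3.88 and 3.74 in degron (++) libraries, in the order of the groups used for ABCG2. In degron (−) libraries it had 14.7 and 14.6, 16.3 and 16.7, and 14.5 and 14.5 FPKM, with no overlap and a mean 3.63 times as high. Its log2 difference was -1.61 without irradiation (SE 0.0469, adjusted p = 5.46e-09, limma). At 4 Gy it was -1.63 at 30 h (adjusted p = 4.04e-09, limma) and -1.69 at 48 h (adjusted p = 4.73e-09, limma). ABCC10 had FPKM of 3.12 and 3.12, 3.32 and 3.02, and 3.43 and 3.74 in degron (++) libraries, in the same order. In degron (−) libraries the values were 8.83 and 7.97, 9.19 and 9.05, and 9.15 and 9.21, again with no overlap, and the mean was 2.70 times as high. Its log2 differences were -1.19, -1.28 and -1.15 (SE 0.0661 each, adjusted p = 2.73e-07, 1.44e-07 and 3.74e-07, limma).

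ABCC5 differed less between the populations. It had FPKM of 13.5 and 12.3, 12.01 and 12.5, and 13.2 and 14.03 in degron (++) libraries and of 14.9 and 16.5, 16.6 and 15.5, and 17.5 and 16.7 in degron (−) libraries, in the order given above. The libraries of the populations did not overlap, and the degron (−) mean was 1.26 times as high. The log2 differences were -0.27, -0.36 and -0.31 (SE 0.0668 each, adjusted p = 0.00515, 0.000807 and 0.00237, limma). With the FPKM of each library rescaled to a common sum (TPM), they became -0.47, -0.64 and -0.56.

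ABCC3 was lower in every degron (++) library than in every degron (−) library, and in degron (++) cells it was lower still at 4 Gy. Its FPKM in degron (++) libraries were 12.6 and 11.95 without irradiation. At 4 Gy they were 7.91 and 8.95 at 30 h, and 7.49 and 7.65 at 48 h. In degron (−) libraries they were 17.5 and 16.4, 14.9 and 16.9, and 17.5 and 14.7, which overlapped between doses and times. The 3 degron (++) groups did not overlap each other, with means of 12.3 ± 0.493, 8.43 ± 0.738 and 7.57 ± 0.116 FPKM (SD, n = 2 each). The 3 groups of ABCC4 did not overlap each other in either population. How many of all genes had groups apart in this way was not counted. ABCC3 values follow. For ABCC3, the log2 difference between the populations was -0.43 without irradiation. At 4 Gy it was -0.84 at 30 h and -0.99 at 48 h. The SE was 0.0934 each, and all 3 values are given as a description. Under TPM these became -0.64, -1.12 and -1.25.

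Of the 4 transporters tested, without ABCC3, at 0 Gy and 48 h, 1 was higher in degron (++) cells, where 37.6% of all tested genes were higher, and 3 were lower, where 40.2% were. At 4 Gy and 30 h, 1 of 4 was higher (38.3% of all genes) and 3 were lower (40.8%). At 4 Gy and 48 h, 1 of 4 was higher (37.1%) and 3 were lower (39.6%). Past the threshold in either direction were 77.7%, 79.1% and 76.7% of all tested genes in these comparisons, so most genes differed between the populations, as did these transporters. Of the genes past it, 48.3%, 48.5% and 48.3% were higher in degron (++) cells, and 35.9%, 33.3% and 31.7% under TPM, which left the directions of the 5 transporters as they were. All 5 transporters past the filter had libraries that did not overlap, as had 71.3% of all tested genes, 34.1% higher and 37.2% lower in degron (++) cells.

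**Figure D1:**
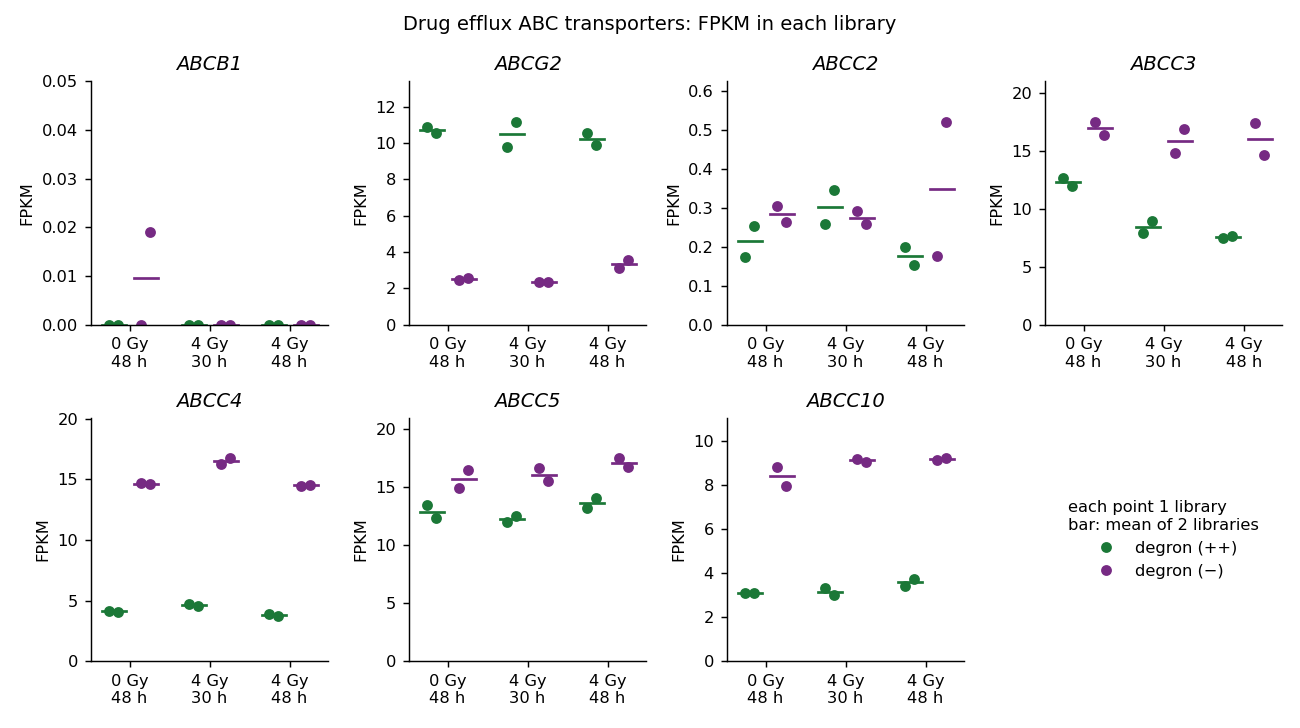
FPKM of the 7 transporters in each library, by dose and time, with 1 point per library, a bar at the mean of 2 libraries, and a separate vertical axis from 0 for each gene. ABCG2 lies above 9.7 FPKM in degron (++) and below 3.6 in degron (−) libraries, while ABCC3, ABCC4, ABCC5 and ABCC10 lie lower in degron (++) libraries and ABCB1 is at or near 0.

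The order of the transporters by FPKM differed between the populations. In degron (++) cells ABCC5 was highest, followed by ABCG2 and ABCC3 at 4 Gy, and in unirradiated cells ABCC5 and ABCC3 overlapped above ABCG2. ABCC4, ABCC10, ABCC2 and ABCB1 followed in this order. In degron (−) cells ABCC3, ABCC4 and ABCC5 held the top places, with overlaps among them, and ABCC10 stood above ABCG2. The summed FPKM of the 7 genes ranged from 38.0 to 44.5 (median 39.8) in degron (++) cells and from 58.3 to 61.9 (median 59.4) in degron (−) cells. Of this sum, ABCG2 made up 24.5% to 27.6% in degron (++) cells and 3.86% to 6.03% in degron (−) cells. For ABCC4 these shares were 9.42% to 12.5% and 23.4% to 27.5%, and for ABCC10 they were 7.02% to 9.54% and 13.7% to 15.6%.

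**Figure D2:**
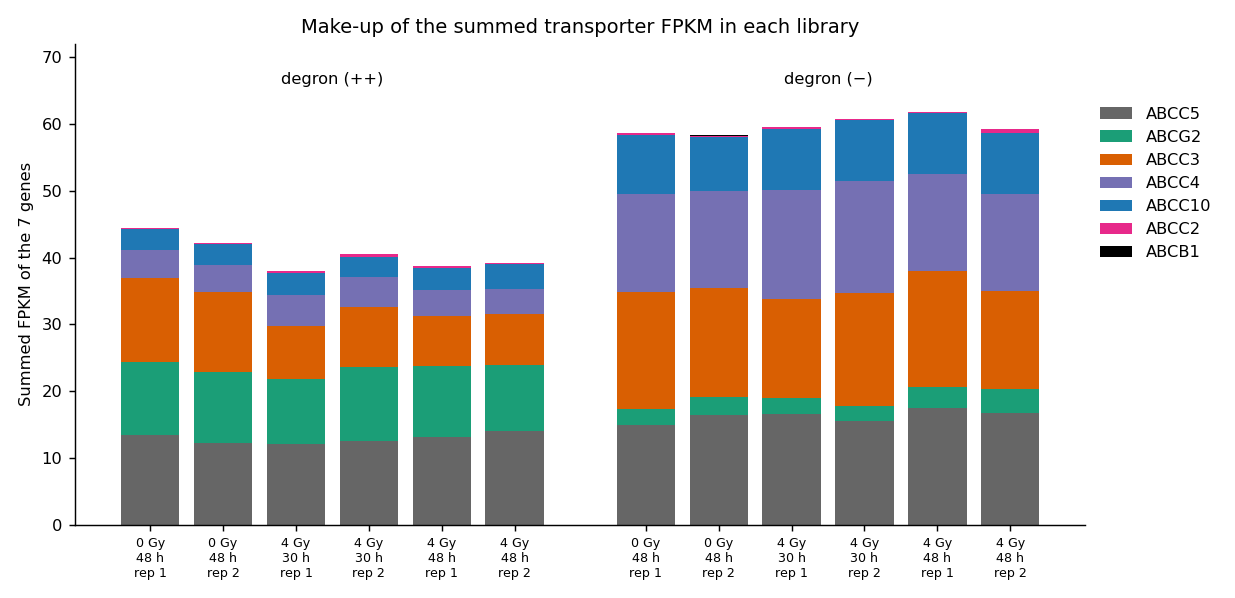
Summed FPKM of the 7 transporters in each library, stacked by gene, with the 6 degron (++) libraries on the left and the 6 degron (−) libraries on the right. The sums reach 38.0 to 44.5 on the left and 58.3 to 61.9 on the right, and ABCG2 takes a larger part in degron (++) libraries.

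In degron (++) cells, the contrast of 4 Gy with 0 Gy at 48 h is the one that the choice of ABCC3 rests on. The mean of ABCC3 was lower by 38.5% and its log2 value fell by 0.63. Since this fall chose the gene, its size is given as a description only. Of all tested genes, 1.82% were past the threshold in this contrast. The 4 Gy group at 30 h also lay below the unirradiated group, by 31.5% of its mean, but these groups differ in both dose and time. The other transporters had log2 differences of -0.066 (ABCG2), -0.090 (ABCC4), 0.074 (ABCC5) and 0.15 (ABCC10) at 48 h.

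In degron (−) cells, 4 Gy against 0 Gy at 48 h gave no transporter past the threshold among 5 tested (limma), where 4.73% of all genes were past it, and 1 had an unadjusted p under 0.05. ABCC3 had a log2 difference of -0.077 (95% interval -0.29 to 0.14, adjusted p = 0.695, limma). ABCC4, ABCC5 and ABCC10 had log2 differences of -0.012, 0.11 and 0.12 (adjusted p = 0.922, 0.376 and 0.361, limma). ABCG2 had 0.30 (95% interval 0.12 to 0.48) with an unadjusted p of 0.00420 and an adjusted p of 0.0670 (limma). Both 4 Gy libraries lay above both unirradiated ones for ABCG2, and also for ABCC5 and ABCC10. For ABCC4 both lay below, and for ABCC3 they overlapped. How many of all genes had libraries apart in this way was not counted. The difference in dose response between the populations was not tested.

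At 4 Gy, ABCG2 was higher at 48 h than at 30 h in degron (−) cells. The means were 3.34 ± 0.327 and 2.34 ± 0.00636 FPKM (SD, n = 2 each). The log2 difference was 0.38 (SE 0.0779, adjusted p = 0.0247, limma), and it was the 1 of 5 transporters past the threshold, where 7.18% of all genes were past it and 6.01% rose. The call was lost under TPM (adjusted p = 0.0823, limma), in a fit of the 4 libraries compared (adjusted p = 0.138, limma) and without either 30 h library (adjusted p = 0.119 and 0.0995, limma) or the second 48 h library (adjusted p = 0.174, limma). ABCC3, ABCC5 and ABCC10 had log2 differences of 0.013, 0.084 and 0.0087 (adjusted p = 0.954, 0.512 and 0.955, limma).

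ABCC4 was highest at 4 Gy and 30 h in both populations, with libraries apart from those of the other groups. How many of all genes had groups apart in this way was not counted. The difference of ABCC4 between 48 h and 30 h did not pass the threshold. Its log2 difference was -0.17 for degron (−) (limma, adjusted p = 0.0619) and -0.23 for degron (++) cells (limma, adjusted p = 0.0609). In degron (++) cells none of 4 transporters tested passed (limma), where 1.21% of all genes did, and 1, ABCC4, had an unadjusted p under 0.05. ABCG2, ABCC5 and ABCC10 had log2 differences of -0.032, 0.14 and 0.14 there (adjusted p = 0.899, 0.360 and 0.366, limma). The time by population interaction gave none of 4 (limma), where 3.23% of all genes were past the threshold, and 1 had an unadjusted p under 0.05. Its largest value was that of ABCG2, -0.41 (unadjusted p = 0.00522, adjusted p = 0.0940, limma).

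**Figure D3:**
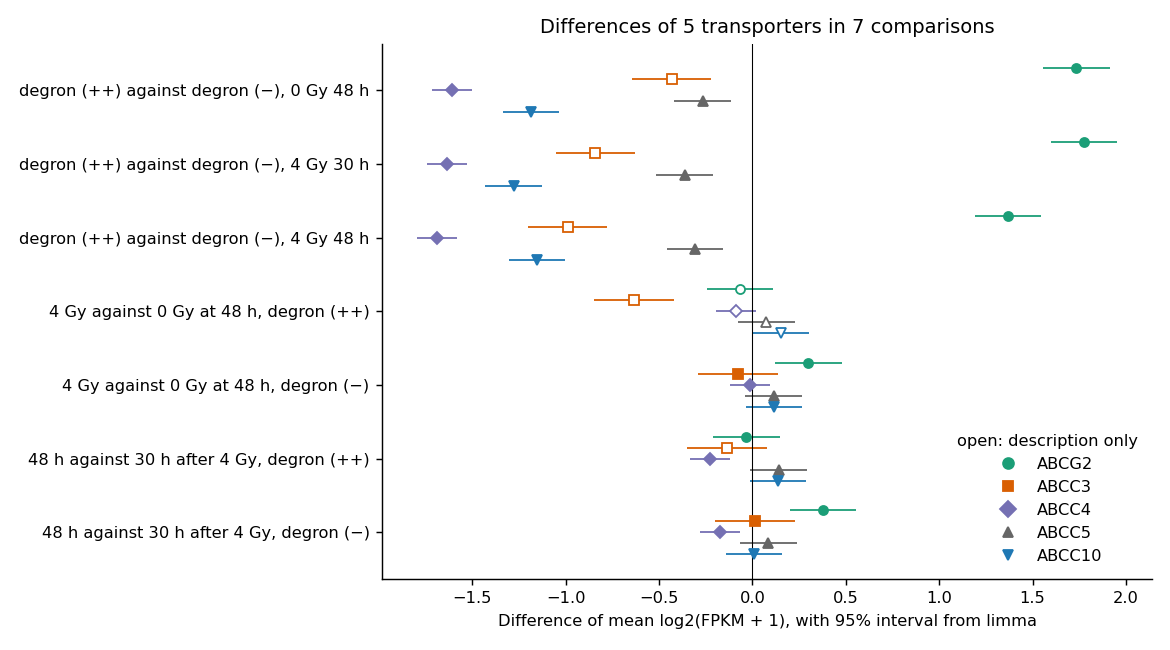
Differences of mean log2(FPKM + 1) for the 5 transporters with FPKM of at least 1, with 95% intervals from limma, in 3 comparisons of degron (++) with degron (−) cells and in the dose and time comparisons of each population. Open symbols are descriptions with no p. Hours on the axis are those of the labels, with no stated starting point. ABCG2 lies at 1.37 to 1.78 in the population comparisons, and the other transporters lie below 0.

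The 9p21 genes were also higher at 48 h than at 30 h in degron (−) cells at 4 Gy. As a percent of the degron (++) mean at the same dose and time, ABCG2 stood at 22.3% and 22.4% at 4 Gy and 30 h, 22.9% and 24.1% without irradiation, and 30.5% and 35.01% at 4 Gy and 48 h. CDKN2A stood at 12.2% and 10.9%, 17.9% and 14.5%, and 19.5% and 17.6% in the same order. CDKN2B stood at 8.91% and 10.5%, 13.2% and 10.9%, and 14.4% and 19.1%. MTAP stood at 15.8% and 18.3%, 23.4% and 21.7%, and 29.3% and 28.6%. Between 30 h and 48 h the log2 values of CDKN2A, CDKN2B and MTAP rose by 0.73, 0.80 and 0.55 in degron (−) cells (adjusted p = 0.00277, 0.00315 and 0.00280, limma). Of the 8 epithelial and duct markers, 4 also rose past the threshold there (KRT7, EPCAM, CDH1 and MUC1), as did 6.01% of all genes, and 4 did not pass it (KRT8, KRT18, KRT19 and SOX9). The part of these genes in the rise of ABCG2 was not tested.

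**Figure D4:**
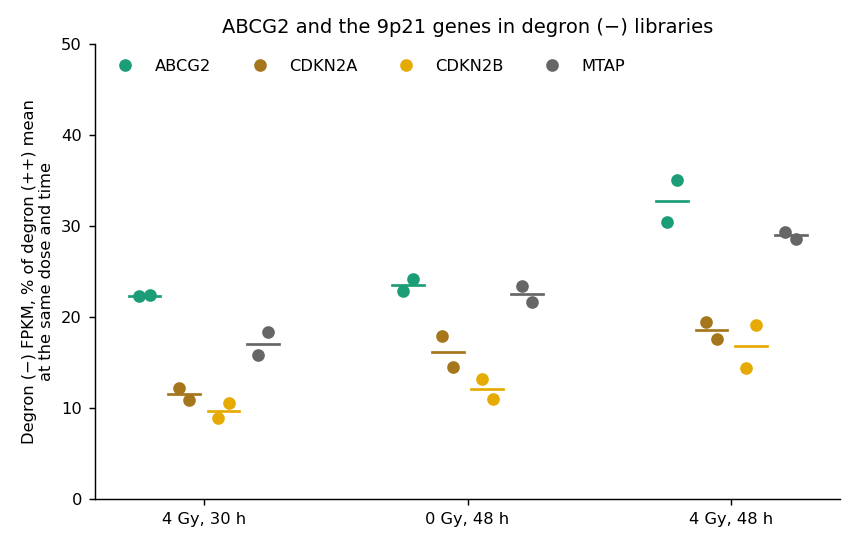
FPKM of ABCG2, CDKN2A, CDKN2B and MTAP in the 6 degron (−) libraries, as a percent of the degron (++) mean at the same dose and time, with 1 point per library and a bar at the mean of 2. ABCG2 and MTAP are highest at 4 Gy and 48 h, at 30.5% and 35.01% and at 29.3% and 28.6%.

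Genes of other lists were counted as higher or lower in degron (++) cells where they passed the threshold in all 3 population comparisons with no overlap of the libraries. So that no gene entered through 1 population alone, counts and medians cover genes that reached 1 FPKM in 2 or more libraries of each population. Of all 11211 such genes, 33.4% were higher and 31.5% lower, and the median log2 difference at 0 Gy and 48 h was 0.013. Of 41 other ABC genes 17 were counted, with 5 higher and 10 lower and a median of -0.29. ABCC1 (multidrug resistance protein 1), another drug exporter, had a median of 7.19 FPKM in degron (++) and 76.2 FPKM in degron (−) libraries. Its log2 difference at 0 Gy and 48 h was -3.24, given with no p since the size of this difference chose the gene for naming. ABCA3, a lipid transporter of lamellar bodies, had medians of 0.045 and 12.8 FPKM, and was not counted since it passed the filter through degron (−) cells alone.

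The genes of drug uptake and metabolism were described in the same way. Of 21 uptake carriers 10 were counted, with 8 higher and 1 lower in degron (++) cells, against 33.4% and 31.5% of all genes, and a median log2 difference of 1.145. The one that was lower, SLC29A1, carries nucleosides and nucleoside drugs into cells, and had medians of 25.7 FPKM in degron (++) and 248.0 FPKM in degron (−) libraries. SLCO1B3, an organic anion carrier, had 15.9 and 3.01 FPKM. All 16 nucleoside drug genes were counted, with 4 higher and 7 lower, beside the same shares of all genes, and a median of -0.17. CDA, which inactivates cytidine analogs such as gemcitabine, had 77.9 and 11.8 FPKM, and DPYD, which degrades fluoropyrimidines, had 17.5 and 7.09 FPKM.

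Conjugation enzymes make substrates that ABCC2 and ABCC3 export. Of 25 listed 12 were counted, with 6 higher and 3 lower in degron (++) cells, beside 33.4% and 31.5% of all genes, and a median of 0.27. The glutathione transferases GSTT1 and GSTM3 were listed at 0 in all degron (++) libraries and had medians of 33.7 and 15.6 FPKM in degron (−) libraries, so they were not counted. GSTA4 and GSTM2 also passed the filter through degron (−) cells alone.

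Among regulators of transporter genes, 10 of 16 were counted by the same rule, with 4 higher and 2 lower, beside 33.4% and 31.5% of all genes, and a median of 0.17. RXRA, the partner of the nuclear receptors that sense drugs, had medians of 46.6 and 18.1 FPKM, and HIF1A, the hypoxia factor, had 48.6 and 32.8 FPKM. The 2 that were lower were ARNT, with 6.39 and 9.05 FPKM, and NFE2L2, with 48.1 and 54.9 FPKM. Of the receptors that sense drugs, NR1I2 was listed at 0 in every library and NR1I3 was under 1 FPKM in each. Of 9 genes listed as membrane scaffold partners 7 were counted, with 3 higher and 4 lower, beside the same shares, and a median of -0.44. This list also holds MVP, which is a vault protein and not a membrane scaffold. MVP, the major vault protein, had medians of 6.46 and 28.8 FPKM, and SLC9A3R2, which anchors membrane proteins, had 23.5 and 59.9 FPKM.

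**Figure D5:**
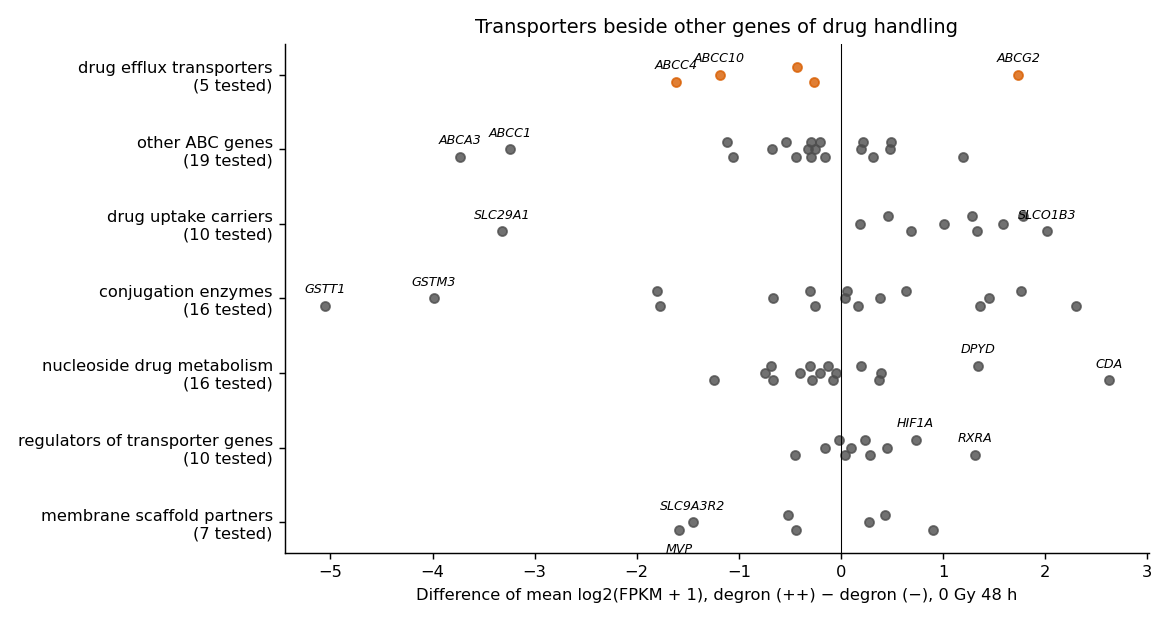
Differences of mean log2(FPKM + 1) between degron (++) and degron (−) cells at 0 Gy and 48 h, with 1 point per tested gene, for the transporters and 6 lists of related genes. Points right of 0 are higher in degron (++) cells. Uptake carriers lie mostly to the right, with SLC29A1 far to the left. GSTT1 and GSTM3 were listed at 0 in degron (++) cells, so their positions depend on the pseudocount.

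The genes whose log2(FPKM + 1) was most like that of each transporter over the 12 libraries were taken by Pearson's r. The libraries share populations, doses and times, and r is given as a description. For ABCC3 these were GEMIN8 (0.973), DNAJC4 (0.967), CRIP2 (0.967), ROBO1 (0.965) and CALM3 (0.959). For ABCG2 they were PLXDC2, GDA and PCSK5, with r of 0.998 to 0.999. For ABCC4 they were VCL, CD47 and SLC20A1 (0.999 each), and for ABCC10 they were ADAMTSL5, PSAP and FAM214B (0.998 each). For ABCC5 they were TBC1D22B (0.978), GRIN2D (0.965) and LIPH (0.964).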

How the data were processed

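RNA of 12 libraries was sequenced after preparation with a stranded mRNA kit. Per the submitters' processing notes, hg19, TopHat2 2.1.1, Bowtie2 2.2.8, SAMtools 0.1.18 and Cuffdiff 2.2.1 were used, and the authors deposited the resulting FPKM by gene symbol, with a file for each library. The FPKM hold no counts, so depth is unknown and no counting error is given. A value of 0 was read as listed at 0.

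Differences were tested on log2(FPKM + 1), which understates the change of low genes, with limma 3.58.1 in R 4.3.3 (6 group means over 12 libraries, eBayes with trend) on the 12946 genes that reached 1 FPKM in 2 or more libraries. Benjamini-Hochberg adjusted p under 0.05 was the threshold. The fits were tested on simulated data. The members and gene lists were chosen with earlier results of these data known. From each list the 2 genes with the largest difference at 0 Gy and 48 h were named, among those past the threshold in all 3 population comparisons without overlap, and for likeness the 3 closest genes (5 for ABCC3). Other genes were chosen after their values were seen. ABCC3 was also fitted at 4 Gy and 30 h, but since its lower level at 4 Gy chose it, no p is given there. The counts over genes past the filter in each population were added after the data were seen. Promoter windows came from RefSeq. Alternatives were a pseudocount of 0.1, quantile normalization, rescaling to TPM, a filter at FPKM 5, no filter, a replicate block, fits of the compared libraries alone and leaving out each library. Tables used Python 3.11.15 with numpy 2.4.6, pandas 2.3.3, scipy 1.17.1 and matplotlib 3.10.9.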

Additional observations from a re-analysis of the deposited data

Results flagged for a closer look

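For ABCG2, the libraries at 4 Gy and 48 h lay on opposite sides of those at 0 Gy and 48 h in the populations. In degron (−) cells both 4 Gy libraries lay above both 0 Gy libraries, with a log2 difference of 0.30 (95% interval 0.12 to 0.48, adjusted p = 0.0670, limma) that did not pass the threshold. In degron (++) cells both lay below, but the nearest libraries were almost level, at 10.539 FPKM with 4 Gy and 10.561 FPKM with 0 Gy. The log2 difference there was -0.066 (95% interval -0.24 to 0.11), for which no test is given. How many of all genes had 2 and 2 libraries apart in this way was not counted. The difference between the populations was not tested.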

How the results depend on the processing

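With ABCC3 left out, the counts of transporters past the threshold in the 3 population comparisons were 4 of 4 each. These counts, and that of the dose comparison of degron (−) cells (0), held under every alternative that kept both libraries of each group. Between 30 h and 48 h in degron (−) cells the count of 1 became 2 with the filter at FPKM 5 and with quantile normalization, 0 under TPM and 0 in the fit of the compared libraries, and was 0 to 1 with a library left out. ABCC4 was the added call (adjusted p = 0.0492 and 0.0394, limma). In degron (++) cells the count of 0 became 1 with quantile normalization (ABCC4, adjusted p = 0.0471, limma). Small differences between 30 h and 48 h in degron (−) cells changed sign under quantile normalization (ABCC3 -0.0079, ABCC10 -0.016) and TPM (ABCC3 -0.021, ABCC10 -0.024), and with a library left out ranged from -0.11 to 0.13 for ABCC3, from -0.00079 to 0.018 for ABCC10, and from -0.12 to 0.056 for ABCG2 in degron (++) cells. The dose difference of ABCC3 in degron (−) cells ranged from -0.19 to 0.041 in this way. The causes were not tested.

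Over all genes, TPM moved the median population difference from -0.023, -0.021 and -0.0091 to -0.21, -0.27 and -0.25. The percent of calls that were higher moved from 48.3, 48.5 and 48.3 to 35.9, 33.3 and 31.7. TPM divides by the FPKM sum, of which the single gene MIR622 was 22.5% to 30.0% over the libraries. The part of MIR622 in these moves was not tested. Genes past the threshold numbered 612 for dose in degron (−) cells (8 to 710 over the settings, 115 to 364 with a library left out), 930 for time in degron (−) (7 to 1001, 281 to 665), 156 for time in degron (++) (12 to 162, 15 to 25), 418 for the interaction (128 to 475, 67 to 379) and 236 for dose in degron (++) cells (17 to 248, 1 to 36). Deviations of same-numbered libraries had correlations of -0.0381 to 0.122, with 2 of 15 over 0.1. These do not show a pairing by replicate number, but with groups of 2 libraries they cannot exclude one. With the replicate block no transporter call changed, and the genes past the threshold were 88 for time and 125 for dose in degron (++) cells. Groups of 2 libraries and an unknown depth limit what small differences can show.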
